A study of Mus musculus with 7 samples.

Results

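Imprinted genes are expressed mainly or only from the copy inherited from a single parent. The 37 names followed here were taken from the known imprinted loci of the mouse, and a gene was a member if its symbol in the deposited table equalled one of them. Of these, 35 were found among the 18335 rows of the table. No row carries the name Phlda2 or Ddc8, so these are not analysed here. RNA was measured in Pomc neurons, whose proopiomelanocortin is cut into peptides that lower appetite, and in Npy neurons, whose neuropeptide Y raises it. Both kinds were isolated by fluorescence sorting from the arcuate nucleus of the hypothalamus in E15.5 mice, and 1 ng of total RNA entered each library of a stranded total RNA kit. The sources used here name no strain, sex, reporter allele or number of embryos for a library. The p-values therefore measure only the spread between these libraries, which may be technical. In all 15223 genes with a value, the column of Npy replicate 3 is a whole percent (95 to 105) of the average of the other Npy columns, so it was left out. This left 4 Pomc libraries to compare with 2 Npy libraries.

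At an imprinted locus, DNA methylation laid down in the egg or the sperm marks a control region, and the genes around it are then read from the maternal or the paternal chromosome only. Many of these genes are active in fetal growth, in the placenta and in the brain. In the hypothalamus, the Prader-Willi genes Magel2 and Ndn, the growth regulators Dlk1 and Cdkn1c, and Gnas, Peg3 and Nnat have been tied to feeding, growth hormone or body weight in mice. The values are summed over both parental copies, so they say nothing about which copy was read.

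The labels were checked on the genes that name the populations, with levels in TPM (transcripts scaled by gene length to a fixed total per library). Values are given in the order of the replicate numbers. The 4 Pomc libraries had 770, 352, 397 and 553 TPM of Pomc, against 24.0 and 59.4 TPM in the 2 Npy libraries (limma adjusted p = 0.00454, but 0.0625 with a single prior variance and 0.0667 with a replicate block). Of Npy they had 152, 2.11, 81.0 and 54.2 TPM, against 728 and 513 TPM in the Npy libraries (adjusted p = 0.418). Of 9 tested genes listed for the sorted populations, limma called 3 higher in Pomc (Pomc, Prdm12 and Nhlh2) and 2 in Npy (Sst and Ghrh). Sst stood at 433 to 653 TPM per Pomc library, against 2108 and 3187 TPM per Npy library. Ghrh stood at 0 to 0.296 TPM, against 96.8 and 112 TPM. Agrp was low and overlapped, at 0 to 6.82 TPM per Pomc library, against 5.53 and 1.75 TPM per Npy library. Of the marker sums of other cells, some were apart between the groups and others overlapped. The 10 oligodendrocyte lineage markers summed to between 100 and 138 TPM per Pomc library, against 315 and 298 TPM per Npy library, and 6 of them were lower in Pomc by limma, with Olig2 and Cspg4 listed at 0 in every Pomc library. The 12 markers of dividing cells summed to between 44.4 and 119 TPM per Pomc library, against 176 and 122 TPM per Npy library. None of the 12 passed by limma, and 4 had an unadjusted p under 0.05 (33.3%, against 7.36% of all tested genes). Sums for radial glia and astrocytes (12 genes) were 310 to 678 TPM per Pomc library, against 660 and 431 TPM per Npy library. In 3 of the 10 tested (Fabp7, Hes5 and Nes) both Npy libraries lay above all Pomc libraries, as in 7.86% of all tested genes. Fabp7 stood at 1.61 to 61.6 TPM per Pomc library, against 323 and 176 TPM per Npy library. Vim overlapped, at 201 to 530 TPM per Pomc library, against 206 and 155 TPM per Npy library. Sums for endothelial cells and pericytes (12 genes) were 1.31 to 11.7 TPM per Pomc library, against 7.07 and 23.3 TPM per Npy library. Fibroblast and meninges genes (12) summed to 20.6 to 37.8 TPM per Pomc library, against 13.6 and 17.0 TPM per Npy library, with Lum, Slc6a13, Tbx18 and Twist1 listed at 0 throughout. Of the 5 tested, only Lama1 was apart, at 13.2 to 22.8 TPM per Pomc library, against 8.62 and 7.71 TPM per Npy library. Microglia genes (10) summed to 0.263 to 46.2 TPM per Pomc library, against 5.58 and 9.97 TPM per Npy library, and red blood cell genes (7 with a row) to 0 to 88.8 TPM per Pomc library, against 1.31 and 0 TPM per Npy library. Both sums were highest in Pomc replicate 4. Pituitary genes (5 with a row) summed to at most 9.30 TPM. The 15 pan-neuronal genes summed to 6861 to 9089 TPM per Pomc library, against 6313 and 5418 TPM per Npy library. None of them passed by limma. In 5 of the 15 all Pomc libraries lay above both Npy libraries, as in 8.05% of all tested genes. Fold changes were above 0 in 11 and below 0 in 4 (Snap25, Syt1, Syp and Rbfox3). Short RNA genes took 10.8 to 13.3% of each Pomc library, against 14.1 and 17.5% of the Npy libraries. The part of these differences in the results below was not tested, and in such libraries fewer cells of a type and less RNA per cell cannot be told apart.

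Some of the members share a start region or lie on the opposite strand of each other, and the sequences at these places are shown because the results return to them. Peg3 and Usp29 are read in opposite directions from a common start region on chromosome 7. The stretch between their RefSeq starts measures 163 bases (GRCm38.p6, chr7:6730420-6730582, plus strand, Usp29 to the right). The start of Zim1, which lies on the far side of Peg3 and is read from the other parental chromosome, is given as the 250 bases before its RefSeq start (chr7:6696433-6696682, minus strand). Capitals mark CG, the pair of bases that carries the methylation.
Peg3-Usp29 gap: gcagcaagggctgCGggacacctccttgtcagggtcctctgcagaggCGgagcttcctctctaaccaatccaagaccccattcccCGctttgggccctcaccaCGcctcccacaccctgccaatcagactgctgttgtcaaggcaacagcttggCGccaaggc
Zim1 upstream: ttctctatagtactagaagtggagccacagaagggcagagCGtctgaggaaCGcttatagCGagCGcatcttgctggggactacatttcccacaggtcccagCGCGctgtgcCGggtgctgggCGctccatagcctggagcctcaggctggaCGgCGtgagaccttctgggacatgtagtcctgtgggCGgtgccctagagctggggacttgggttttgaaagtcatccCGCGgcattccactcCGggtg

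The gap holds 5 CG and the Zim1 stretch 14. RefSeq start windows of 300 bases (250 before and 50 after the start) were found for 27 of the 35 members. Counting CG in the window with the most per gene (a pair that reads the same on both strands), the members had a median of 17 and all 27025 genes with a window a median of 8. Members had more windows (43 for 27 genes, against 32851 for 27025), which favours a high count. With the window of fewest CG per gene the medians were 13 and 6, and among genes with 1 window 16 (18 members) and 7 (22862 genes). The counts were not compared at matched levels, and more of the tested members had at least 100 TPM (55.9%, against 14.9% of all tested genes). These medians therefore do not show that a high count is particular to imprinted genes. Among the members, Grb10 had the most (45, a count reached by 2.21% of all genes), followed by Gnas (40, reached by 4.41%), and Rian had 0.

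The imprinted loci also hold short RNA genes, some of them inside members. The 3 with the highest level here were Mir770, inside Meg3, Mir335, inside Mest, and Mir127, which lies on the strand opposite to Rtl1. Their mature forms are shown 5′ to 3′ from RefSeq (GRCm38.p6), with the seed (bases 2 to 8) in capitals. The last line is the stretch of the Rtl1 transcript (GENCODE M21, bases 2642 to 2663 of 6358) that is fully complementary to miR-127-3p, with the match to the seed in capitals.
mmu-miR-770-5p: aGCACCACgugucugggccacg
mmu-miR-335-5p: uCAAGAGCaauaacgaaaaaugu
mmu-miR-127-3p: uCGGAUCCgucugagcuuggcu
Rtl1 stretch: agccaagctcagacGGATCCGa

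Besides Mir127, the genes Mir431, Mir433, Mir434 and Mir136 lie opposite Rtl1. All 10 arms of these 5 genes were fully complementary to the Rtl1 transcript, and the 14 arms of the 7 genes had 14 different seeds. The sources used here do not say whether reads were counted by strand, so reads of Rtl1 and of the transcript opposite to it cannot be told apart with certainty.

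The imprinted genes as a group were strongly expressed in both neuron types. Together they made up 1.52 to 1.59% of all TPM in the Pomc libraries and 1.46 and 1.33% in the Npy libraries, and the groups did not overlap in this sum. Nnat carried that difference: without it the other members made up 0.951 to 1.19% in the Pomc libraries and 1.19 and 1.02% in the Npy libraries, which overlap. Of the 34 members that could be tested, 19 averaged at least 100 TPM over the 6 libraries (55.9%), as 14.9% of all 13845 tested genes did. By mean level, 18 of the 34 lay in the top 10% of tested genes and 5 in the top 1%. These 5 were Nnat (rank 11), Peg10 (rank 27), Ndn (rank 28), Peg3 (rank 50) and Meg3 (rank 118). At the other end, Rasgrf1, Dio3, Igf2 and H19 averaged under 10 TPM. Igf2 reached 1 TPM in a single library and was not tested, since the test took genes with at least 1 TPM in at least 2 libraries.

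**Figure D1:**
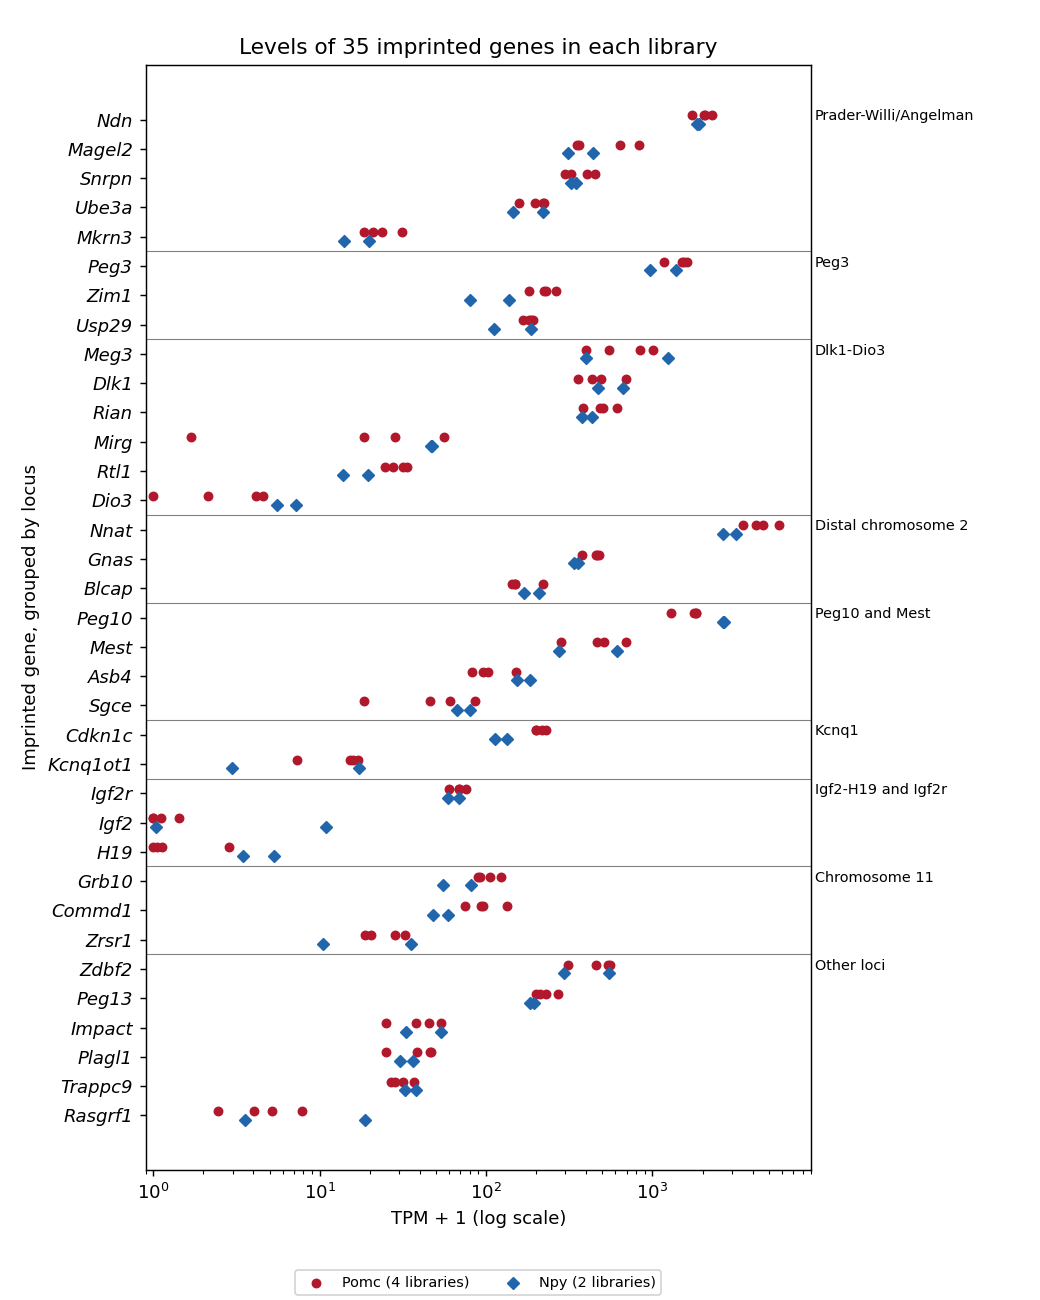
Level of each of the 35 imprinted genes in each library, as TPM + 1 on a log axis, with genes grouped by locus. Red points are the 4 Pomc libraries and blue diamonds the 2 Npy libraries. Nnat, Ndn, Peg10 and Peg3 lie at 966 TPM or more in every library, while Igf2, H19 and Dio3 lie under 10 TPM.

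None of the 34 tested members passed the threshold between Pomc and Npy neurons. The test was limma on log2(TPM + 1) across all 13845 genes, two-sided, at an adjusted p (Benjamini-Hochberg) of 0.05. It called 57 of all genes (0.412%, made up of 0.289% higher in Pomc and 0.123% higher in Npy) and 0 of the 34 members. An unadjusted p under 0.05 was found for 9 of the 34 (26.5%), against 7.36% of all tested genes. Of these, 6 had the higher mean in Pomc neurons (Cdkn1c, Zim1, Commd1, Grb10, Rtl1 and Nnat), against 4.08% of all tested genes, and 3 in Npy neurons (Peg10, Asb4 and H19), against 3.28%. The count was 5 leaving out Pomc replicate 1 (7.12% of all tested genes), Pomc replicate 4 (8.04%) or Npy replicate 2 (3.27%), and 4 with a replicate block (5.17%). In 12 of 34 members (35.3%) the Pomc and Npy libraries did not overlap, against 15.9% of all tested genes. Pomc lay above in 8 members, against 8.05% of all tested genes, and Npy lay above in 4, against 7.86%. With Npy replicate 2 as the only Npy library, 23 members (67.6%) did not overlap, and neither did 49.5% of all tested genes, since a lone library overlaps less often by construction. Levels differ between the lists, and among genes with at least 100 TPM, 5 of 19 members had an unadjusted p under 0.05 (9.29% of all such genes) and 7 of 19 did not overlap (17.7% of all such genes). The median log2 fold change (Pomc minus Npy) was 0.17 over the members and 0.02 over all tested genes. Without Npy replicate 2 the members' median was -0.01.

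**Figure D2:**
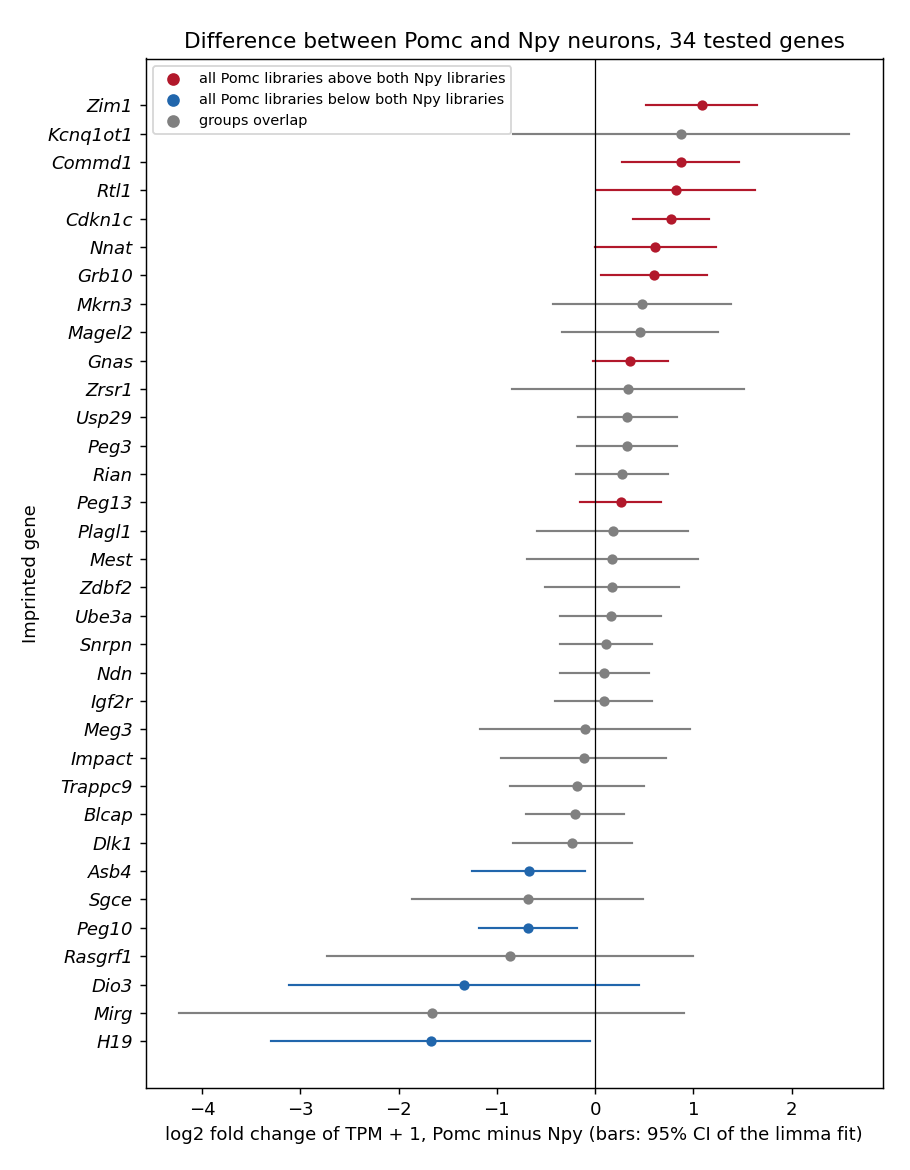
Log2 fold change of TPM + 1, Pomc minus Npy, for the 34 tested imprinted genes, with the 95% confidence interval of the limma fit as bars. Red marks the 8 genes in which all 4 Pomc libraries lie above both Npy libraries, blue the 4 genes with the opposite order and grey the genes whose groups overlap; none of the 34 passed an adjusted p of 0.05.

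Grouped by the copy that is usually read in the mouse, a grouping taken from general knowledge, both kinds of gene were found on both sides. Of 20 tested genes read from the paternal copy, 14 had fold changes above 0 and 6 below, with a median log2 of 0.18. Of 8 read from the maternal copy, 4 lay above and 4 below, with a median of -0.005. The remaining 6, whose copy depends on tissue or promoter (Ube3a, Gnas, Grb10, Blcap, Commd1 and Trappc9), had 4 above and 2 below, with a median of 0.26.

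The Peg3 locus on chromosome 7 held the member with the largest positive fold change. Peg3, a zinc finger gene of the paternal copy that is known for its role in maternal behaviour in mice, stood at 1167, 1506, 1617 and 1557 TPM in the Pomc libraries and 1383 and 966 TPM in the Npy libraries. Npy replicate 1 lay within the Pomc range and Npy replicate 2 under it. Usp29, read from the paternal copy in the opposite direction and named for its similarity to ubiquitin proteases, stood at 166, 181, 191 and 186 TPM in the Pomc libraries and 186 and 111 TPM in the Npy libraries. It showed the same order of the Npy libraries. Zim1, a zinc finger gene read from the maternal copy (chromosome 7, 6671269 to 6696450), had 180, 221, 262 and 229 TPM in the Pomc libraries and 136 and 78.9 TPM in the Npy libraries. All 4 Pomc libraries lay above both Npy libraries. Its log2 fold change was 1.08 ± 0.25 (SE, 95% interval 0.52 to 1.65), 2.12-fold, with a limma adjusted p of 0.183. Peg3 and Usp29 had log2 fold changes of 0.33 ± 0.23 and 0.33 ± 0.22, with intervals from -0.18 and -0.17 to 0.84 and 0.83.

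Peg3 and Usp29, which flank the 163-base gap shown above, kept nearly the same ratio in all libraries. Peg3 was 7.03, 8.30, 8.46 and 8.39 times Usp29 in the Pomc libraries and 7.44 and 8.69 times in the Npy libraries. The SD of the log2 ratio over the 6 libraries was 0.12, rank 3 of the 496 pairs of members above 0 in every library, whose median SD was 0.58. The pairs with smaller SDs were not neighbours: Peg3 with Ube3a (0.116) and Gnas with Peg13 (0.119), so a steady ratio was not particular to genes that share a start region. Of the 15 pairs that lie within 100000 bases of each other or overlap, it had the smallest SD. Peg10 and Sgce also start back to back, with 98 bases between them in GENCODE M21 (146 bases for Peg3 and Usp29 in that annotation). Their ratio ranged from 20.9 to 105, with an SD of 0.80. The ratio of Peg3 to its other neighbour, Zim1, was 6.47, 6.82, 6.18 and 6.79 in the Pomc libraries and 10.1 and 12.2 in the Npy libraries, with no overlap. The exact two-sided permutation test gave p = 0.0667, the smallest value that 15 splits allow, and an adjusted p of 0.25 over the 15 pairs.

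**Figure D3:**
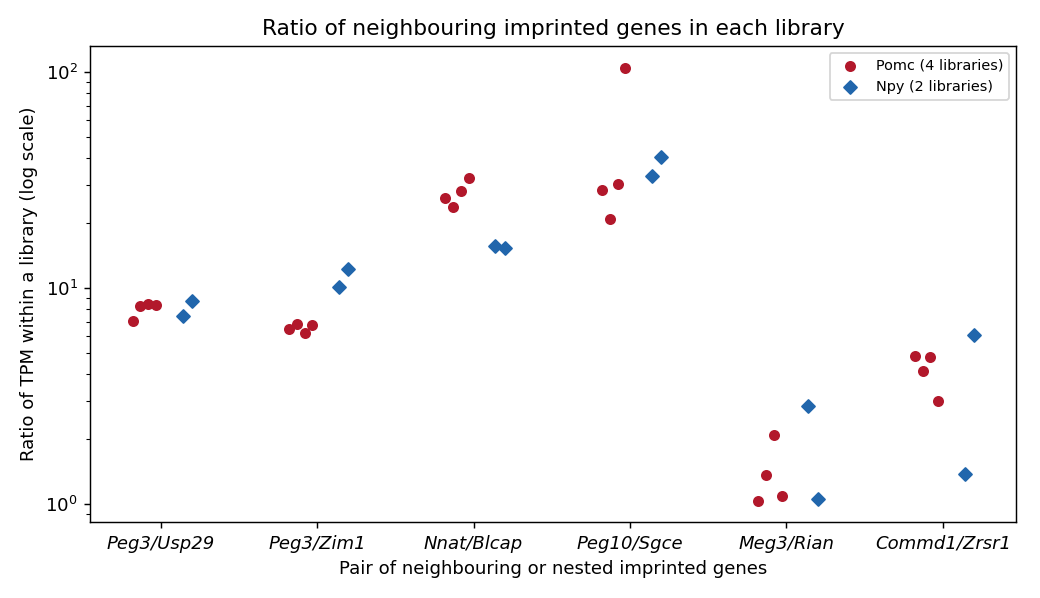
Ratio of TPM between neighbouring or nested imprinted genes within each library, on a log axis, for 6 of the 15 pairs. Red points are the 4 Pomc libraries (replicates 1 to 4 from left to right) and blue diamonds the 2 Npy libraries (1 and 2). Peg3/Usp29 stays between 7.03 and 8.69, Nnat/Blcap does not overlap between the groups, and Peg10/Sgce reaches 105 in Pomc replicate 4.

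Genes of the Prader-Willi and Angelman region on chromosome 7 were abundant and showed no difference that passed the test. Ndn, which encodes necdin, a MAGE-family protein of postmitotic neurons, stood at 2276, 1728, 2076 and 2035 TPM in the Pomc libraries and 1916 and 1865 TPM in the Npy libraries. Its levels overlapped between the groups, and the 95% interval of its log2 fold change ran from -0.36 to 0.55. Magel2, whose protein acts with a ubiquitin ligase in protein recycling from endosomes, stood at 361, 825, 636 and 352 TPM in the Pomc libraries and 312 and 440 TPM in the Npy libraries. Pomc replicates 2 and 3 were the highest, and the Npy libraries lay close to the other Pomc libraries. Snrpn, which encodes a splicing protein of neurons, stood at 404, 296, 321 and 453 TPM in the Pomc libraries and 348 and 324 TPM in the Npy libraries. The Npy libraries lay inside the Pomc range. Ube3a, the ubiquitin ligase gene of Angelman syndrome, averaged 199 ± 30.3 TPM (SD, n = 4) in Pomc neurons, against 218 and 143 TPM in Npy libraries. Mkrn3, a brake on the onset of puberty, was the least abundant, at 17.6 to 30.1 TPM in Pomc libraries, against 18.9 and 12.9 TPM in Npy libraries. All 5 had fold changes above 0, with log2 values from 0.10 for Ndn to 0.48 for Mkrn3 and limma adjusted p from 0.838 to 0.939. In none of them were the groups apart.

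The neighbours in this region did not keep a fixed ratio. Ndn was 6.31, 2.10, 3.26 and 5.77 times Magel2 in the Pomc libraries and 6.14 and 4.24 times in the Npy libraries, an SD of the log2 ratio of 0.63. The libraries with the lowest ratio were those with the highest Magel2 level, while Ndn itself varied by no more than 1.32-fold between Pomc libraries on TPM + 1.

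The Dlk1-Dio3 locus on chromosome 12 combines maternal noncoding transcripts with paternal protein genes. Meg3, a noncoding RNA of the maternal copy (109541001 to 109571726), stood at 396, 838, 1007 and 548 TPM in the Pomc libraries and 1244 and 396 TPM in the Npy libraries. The pair of Npy libraries enclosed the Pomc range. Its log2 fold change was -0.10 ± 0.47, and it was above 0 without Pomc replicate 1 (0.14) and without Npy replicate 1 (0.72). Rian, the snoRNA host transcript beside it, stood at 382, 613, 482 and 504 TPM in the Pomc libraries and 435 and 376 TPM in the Npy libraries, a narrower range. Mirg, the miRNA host at the far end, stood at 17.4, 54.7, 27.3 and 0.680 TPM in the Pomc libraries and 45.5 and 46.6 TPM in the Npy libraries. Pomc replicate 4 was far under the other libraries, and the 33.1-fold range of the Pomc libraries on TPM + 1 was the widest of the 34 members. Although these noncoding genes follow each other on the same strand, the ratio of Meg3 to Rian ranged from 1.04 to 2.86 and that of Rian to Mirg from 8.06 to 741.

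Among the protein genes of this locus, Dlk1, a membrane protein related to Notch ligands that holds back differentiation, stood at 358, 689, 490 and 432 TPM in the Pomc libraries and 472 and 667 TPM in the Npy libraries. The groups overlapped (log2 -0.23 ± 0.27, limma adjusted p = 0.885). Rtl1, a gene derived from a retrotransposon, stood at 23.6, 30.8, 26.7 and 32.3 TPM in the Pomc libraries and 18.5 and 12.9 TPM in the Npy libraries. All Pomc libraries lay above both Npy libraries (log2 0.83 ± 0.36, limma adjusted p = 0.654). Mir127, on the opposite strand, stood at 112, 188, 56.8 and 109 TPM in the Pomc libraries and 201 and 0 TPM in the Npy libraries, and did not follow this order. Dio3, the enzyme that inactivates thyroid hormone, stood at 3.13, 1.13, 3.56 and 0 TPM in the Pomc libraries and 6.25 and 4.55 TPM in the Npy libraries. Both Npy values exceeded all Pomc values, at levels near the lower limit of the test (limma adjusted p = 0.792).

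Rian and Rtl1 lie on opposite strands, 3609 bases apart. Rian was 15.6 to 19.9 times Rtl1 in the Pomc libraries and 23.5 and 29.2 times in the Npy libraries, with no overlap (exact permutation p = 0.0667, adjusted 0.25 over 15 pairs). Of the 15 pairs, Peg3/Zim1, Zim1/Usp29, Nnat/Blcap and Rian/Mirg were also apart, and the rest overlapped. The exact permutation p was 0.0667 for Zim1/Usp29 and 0.4 for Rian/Mirg. Rtl1, Zim1 and Nnat were themselves apart between the groups. The share of apart ratios among all 496 pairs was not counted.

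On distal chromosome 2, Nnat had the highest level of all members. Nnat encodes neuronatin, a small membrane protein of developing neurons and endocrine cells, and lies within an intron of Blcap on the opposite strand (157560078 to 157562522). It stood at 5731, 3501, 4192 and 4595 TPM in the Pomc libraries and 2638 and 3177 TPM in the Npy libraries. All Pomc libraries lay above both Npy libraries, by 1.53-fold in the fit (log2 0.61 ± 0.27, limma adjusted p = 0.675). Blcap, its host, stood at 218, 148, 148 and 143 TPM in the Pomc libraries and 169 and 206 TPM in the Npy libraries. The ratio of Nnat to Blcap was 26.3, 23.7, 28.3 and 32.2 in the Pomc libraries and 15.6 and 15.4 in the Npy libraries, with no overlap and the smallest possible exact permutation p of 0.0667 (adjusted 0.25). Gnas, which encodes the stimulatory G protein subunit behind melanocortin and other receptors and has several promoters that are summed here, stood at 479, 463, 378 and 456 TPM in the Pomc libraries and 335 and 354 TPM in the Npy libraries. The groups were apart by a small margin (log2 0.36 ± 0.17, limma adjusted p = 0.71).

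Cdkn1c, on distal chromosome 7 (143458339 to 143461050), gave the smallest p-value of the members. It encodes p57, an inhibitor of cell division and of fetal growth, and is read from the maternal copy. It stood at 198, 217, 200 and 227 TPM in the Pomc libraries and 113 and 132 TPM in the Npy libraries. The Pomc libraries were close together and all above the Npy libraries. Its log2 fold change was 0.78 ± 0.17 (95% interval 0.39 to 1.16), 1.71-fold, with a limma adjusted p of 0.162. The dividing-cell markers summed to 44.4 to 119 TPM per Pomc library, against 176 and 122 TPM per Npy library. Of these 12 markers, 11 had fold changes below 0 and 1, Pcna, above 0, and none passed by limma. Whether they bear on Cdkn1c was not tested. Kcnq1ot1, the noncoding RNA of the paternal copy that silences the genes around it, stood at 6.33, 14.8, 16.01 and 14.2 TPM in the Pomc libraries and 16.4 and 1.96 TPM in the Npy libraries. Its Npy libraries were at both ends of the range, and its log2 fold change of 0.88 was -0.40 without Npy replicate 2.

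Of the 4 members of chromosome 6, 3 had log2 fold changes below 0 and 1, Mest, above 0. Peg10, a paternal gene derived from a retrotransposon and required in the placenta, stood at 1285, 1766, 1817 and 1833 TPM in the Pomc libraries and 2641 and 2698 TPM in the Npy libraries. Both Npy values exceeded all 4 Pomc values (log2 -0.69 ± 0.22, 1.61-fold higher in Npy, limma adjusted p = 0.448). Sgce, which encodes a sarcoglycan linked to myoclonus dystonia and starts beside Peg10, stood at 44.9, 84.6, 59.9 and 17.4 TPM in the Pomc libraries and 79.6 and 66.2 TPM in the Npy libraries, which overlapped. Asb4, a SOCS-box protein gene of the maternal copy that is expressed in Pomc and Npy neurons of the adult, stood at 94.4, 102, 81.8 and 149 TPM in the Pomc libraries and 182 and 153 TPM in the Npy libraries. The groups were apart, although Pomc replicate 4 nearly reached Npy replicate 2 (log2 -0.68 ± 0.25, limma adjusted p = 0.572). Mest, a paternal gene of fetal growth and fat tissue, stood at 280, 692, 509 and 465 TPM in the Pomc libraries and 614 and 273 TPM in the Npy libraries. Mir335, inside it, stood at 49.96, 138, 244 and 321 TPM in the Pomc libraries and 207 and 8.39 TPM in the Npy libraries. In both, Pomc replicate 1 and Npy replicate 2 were the lowest.

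Igf2, the fetal growth factor, and H19, the noncoding RNA of the maternal copy beside it, were listed near 0. Igf2 had 0.120, 0, 0.433 and 0 TPM in Pomc libraries, against 0.0389 and 9.90 TPM in Npy libraries, so that a single library held nearly all of it. In that library, Npy replicate 2, the 12 endothelial and pericyte markers together were also highest (23.3 TPM, against 1.31 to 11.7 TPM in the other libraries), although 4 of them, Cldn5, Flt1, Tek and Tie1, were listed at 0 there. H19 stood at 0.122, 1.83, 0.0585 and 0 TPM in the Pomc libraries and 2.49 and 4.35 TPM in the Npy libraries. Its miRNA gene Mir675 was listed at 0 in all 4 Pomc libraries, against 7.84 and 33.5 TPM in the Npy libraries. The limma adjusted p of Mir675, 0.0677, missed the threshold. The part of such cells in these values was not tested. Igf2r, the receptor that removes IGF2, stood at 67.5, 74.8, 67.8 and 59.1 TPM in the Pomc libraries and 58.2 and 68.0 TPM in the Npy libraries (95% interval of the log2 fold change -0.40 to 0.58).

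On chromosome 11, all 3 members had higher means in Pomc neurons. Commd1, a gene of copper handling and protein turnover, stood at 133, 73.6, 92.8 and 94.6 TPM in the Pomc libraries and 47.0 and 58.0 TPM in the Npy libraries. The groups were apart (log2 0.87 ± 0.26, limma adjusted p = 0.403). Zrsr1, a splicing factor gene inside an intron of Commd1 on the other strand, stood at 27.4, 17.7, 19.3 and 31.6 TPM in the Pomc libraries and 34.2 and 9.54 TPM in the Npy libraries, and overlapped. Grb10, an adaptor that restrains insulin and growth factor receptors, stood at 104, 88.2, 91.3 and 122 TPM in the Pomc libraries and 54.1 and 80.1 TPM in the Npy libraries. The groups were apart (log2 0.60 ± 0.24, limma adjusted p = 0.61).

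The remaining members lie at other loci. Zdbf2, a paternal zinc finger gene tied to early feeding and growth in mice, stood at 311, 552, 542 and 454 TPM in the Pomc libraries and 549 and 294 TPM in the Npy libraries. Peg13, a noncoding RNA in an intron of Trappc9, stood at 272, 209, 200 and 228 TPM in the Pomc libraries and 183 and 192 TPM in the Npy libraries, apart by a narrow margin (limma adjusted p = 0.817). Trappc9, a vesicle trafficking gene, averaged 30.0 ± 4.43 TPM in Pomc neurons (SD, n = 4), against 31.4 and 36.7 TPM in the Npy libraries. Of these, only Peg13 had groups that did not overlap. Plagl1, a zinc finger regulator of other imprinted genes, averaged 37.9 ± 10.1 TPM in Pomc neurons, against 29.4 and 35.7 TPM in the Npy libraries. Impact, a regulator of translation under amino acid shortage, averaged 39.5 ± 12.2 TPM in Pomc neurons, against 52.8 and 32.2 TPM in the Npy libraries. Rasgrf1, an activator of RAS tied to growth, stood at 1.44 to 6.84 TPM in Pomc libraries, against 17.6 and 2.55 TPM in Npy libraries. The groups of all 3 overlapped.

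Libraries of the same neuron type also differed from each other. On log2(TPM + 1), the SD over the 4 Pomc libraries had a median of 0.31 over the 34 tested members and 0.46 over all tested genes. The 2 Npy libraries differed by a median of 0.44 in the members and 0.51 in all tested genes. More of the members had at least 100 TPM (55.9%, against 14.9% of all tested genes). The spread was not compared at matched levels, so these medians do not show that members are more even. Usp29 and Cdkn1c were the most even in Pomc neurons, with SDs of 0.09 and 0.10, and Mirg (2.20), Dio3 (1.01) and Sgce (0.95) the least. Npy replicate 2 was the lowest of the 6 libraries in 12 members and the highest in 3. It lay under Npy replicate 1 in 19 of the 34 members and in 58.7% of all tested genes, so the lower values were not particular to members. Pomc replicate 2 was the highest in 11 and the lowest in 2. Kcnq1ot1, Rasgrf1, Zrsr1, Meg3 and Mest each stood more than 1 log2 unit lower in Npy replicate 2 than in Npy replicate 1 (2.55, 2.39, 1.74, 1.65 and 1.17).

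**Figure D4:**
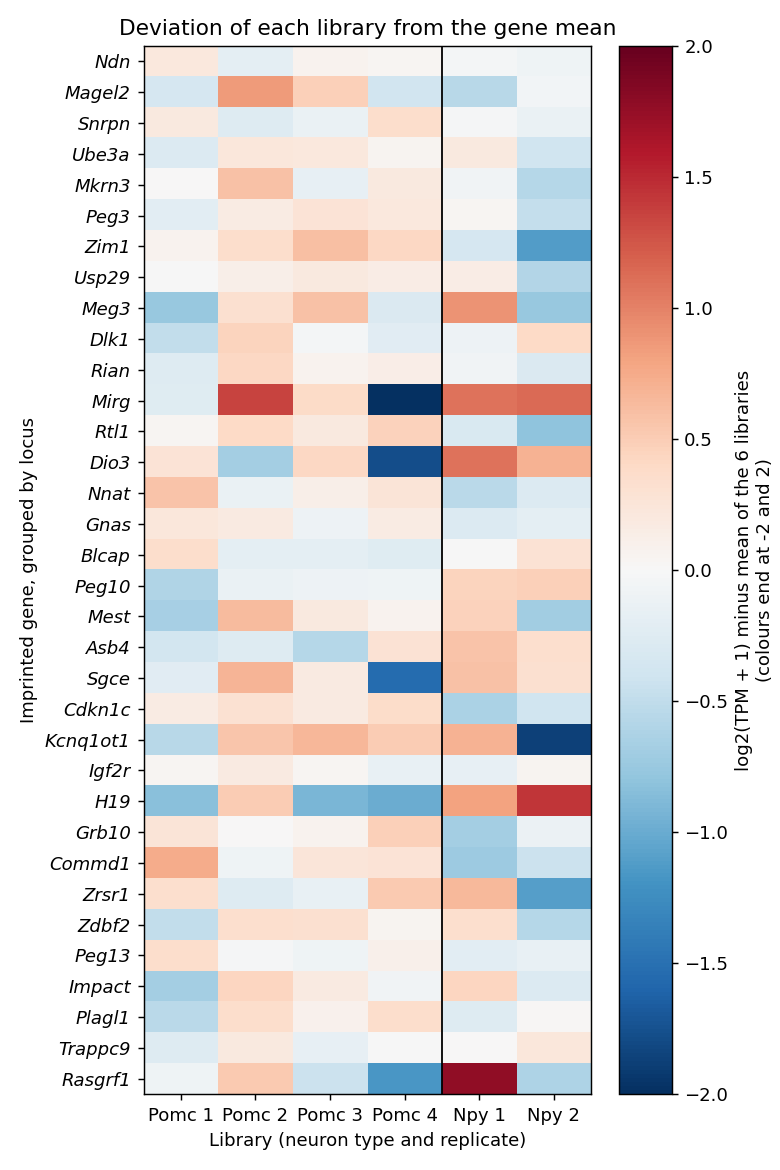
Deviation of each library from the mean of the 6 libraries, in log2(TPM + 1), for the 34 tested imprinted genes in rows grouped by locus; Pomc replicates 1 to 4 stand left of the line and Npy replicates 1 and 2 right of it. Cdkn1c and Zim1 are above their mean in all Pomc libraries and below it in both Npy libraries, while Kcnq1ot1 and Rasgrf1 differ most between the Npy libraries.

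Imprinted genes outside the members were described from a list of 53 names, of which 45 had a row and 36 were tested. Of these 36, 1 gene passed the threshold, and it was lower in Pomc neurons. Of all tested genes, 0.412% passed, and 0.123% passed with the higher mean in Npy neurons. Begain, a gene of neuronal synapses named for binding a postsynaptic guanylate kinase, lies on chromosome 12 (109032187 to 109068217), 384605 bases from Dlk1. It stood at 91.3, 103, 76.8 and 101 TPM in the Pomc libraries and 249 and 218 TPM in the Npy libraries. Both Npy values were more than any Pomc value. Its log2 fold change was -1.33 ± 0.20, 2.51-fold higher in Npy than in Pomc, with a limma adjusted p of 0.0254, and over 15 alternatives the log2 value ranged from -1.42 to -1.23 and the adjusted p from 0.00229 to 0.415. The call was lost without any 1 of the other 5 libraries, but not without Pomc replicate 4 (adjusted p up to 0.206 by limma). The 3 most abundant genes of the list were Snurf, whose transcript is shared with Snrpn (434 ± 93.2 TPM in Pomc neurons, 411 and 388 TPM in Npy libraries), Nap1l5 (288 ± 59.6 TPM, 452 and 359 TPM) and Nap1l4 (232 ± 29.4 TPM, 241 and 250 TPM). Over the list, 17 fold changes lay above 0 and 19 below, with a median log2 of -0.04. An unadjusted p under 0.05 was found for 3 of 36 (8.33%, against 7.36% of all tested genes).

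The genes that keep and read imprints were expressed in both neuron types. Of 27 listed genes of imprint maintenance and DNA methylation, 25 were tested and none passed by limma. An unadjusted p under 0.05 was found for 1 (4.0%, against 7.36% of all tested genes). The most abundant were Trim28, the corepressor that holds methylation at imprints (238 ± 51.6 TPM in Pomc neurons, 224 and 277 TPM in Npy libraries), Mbd3 (213 ± 21.7 TPM, 201 and 290 TPM) and Ehmt2 (176 ± 29.6 TPM, 159 and 215 TPM). The median log2 fold change of these 25 was -0.01. Of the insulin-like growth factor pathway, to which Igf2, Igf2r and Grb10 belong, 21 genes were tested and none passed by limma, with a median of 0.28. In this pathway, 2 genes had an unadjusted p under 0.05 (9.52%, against 7.36% of all tested genes). Its abundant genes included Akt1 (203 ± 43.6 TPM in Pomc neurons, 132 and 172 TPM in Npy libraries) and Pik3r1 (173 ± 21.2 TPM in Pomc neurons, 180 and 124 TPM in Npy libraries), which carry the signal inside the cell.

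Of 13 tested genes of thyroid hormone handling, around Dio3, none passed by limma and 0 had an unadjusted p under 0.05. The thyroid hormone receptor gene Thra led them (682 ± 53.2 TPM in Pomc neurons, 666 and 838 TPM in Npy libraries), and the corepressor gene Ncor1 was also abundant (127 ± 19.8 TPM in Pomc neurons, 117 and 68.0 TPM in Npy libraries). Of 10 tested MAGE genes and partners of Magel2 and Ube3a, none passed by limma and 0 had an unadjusted p under 0.05. Maged1, a MAGE gene that is not imprinted, stood at 1309 ± 118 TPM in Pomc neurons and 1207 and 1595 TPM in Npy libraries, followed by the proteasome gene Psmd4 (312 ± 62.0 TPM, 322 and 367 TPM) and Maged2 (230 ± 34.2 TPM, 189 and 185 TPM).

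Of the short RNA genes of imprinted loci, 53 rows were found and 40 tested. None passed by limma, and 6 of the 40 had an unadjusted p under 0.05, against 7.36% of all tested genes. These 6 were Mir665, with the higher mean in Pomc neurons, and Mir675, Mir410, Mir329, Mir412 and Mir369 in Npy neurons. In 5 of the 40 the Pomc and Npy libraries did not overlap, against 15.9% of all tested genes. Mir410 stood at 18.96 TPM in Pomc replicate 2 and was listed at 0 in the other Pomc libraries, against 55.9 and 36.4 TPM in the Npy libraries. Mir412 stood at 0, 34.8, 55.5 and 0 TPM in the Pomc libraries and 85.4 and 298 TPM in the Npy libraries. Mir770, inside Meg3, stood at 128, 409, 209 and 261 TPM in the Pomc libraries and 231 and 94.1 TPM in the Npy libraries, and so was lowest in Npy replicate 2. A row of under 130 bases takes few reads for a large TPM, and reads of the host transcript over the hairpin cannot be told apart from the hairpin's own, so these values are no measure of the mature miRNA.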

How the data were processed

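The deposited table holds 18335 gene symbols and 7 sample columns, with no unit in its header. Its values, scaled by the authors, were taken as TPM because 6 of the columns sum to 1000000 and short RNA genes lead them. Per the submitters' processing notes, HISAT2, mm10 and edgeR 3.8 were involved, in an unstated role. The sources used here do not give the counting tool, annotation, length definition or use of strand. TPM keep no read depth, so precision was judged from replicates alone, and a gene listed at 0 is not shown to be absent. Genes above 0 numbered 12493 to 14656 in the Pomc libraries and 14933 and 12922 in the Npy libraries. The 4 rows of 2 repeated date-like symbols were left out.

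Genes with at least 1 TPM in at least 2 libraries were tested with limma 3.58.1 (R 4.3.3, trend) on log2(TPM + 1), which understates the change of low genes, in place of the count test that counts would have allowed. Fold changes are Pomc minus Npy. Ratios of neighbours used the exact permutation test. Alternatives changed the pseudocount, filter, scaling (TMM factors, or short RNA genes removed), prior variance, replicate block and libraries used. Coordinates are from GENCODE M21 (GRCm38, the assembly of mm10). All 35 members with a row are named, and of other lists the genes past the threshold and the 3 with the highest mean, of which some are not reported here. Other short RNA genes and single marker genes were named after their values were seen. The members and lists were chosen with earlier results of these data known.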

Additional observations from a re-analysis of the deposited data

Results flagged for a closer look

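In 60 sets of values (the 35 members, the other genes named by rule and 4 library measures), the Pomc library farthest from its nearest neighbour was set against the range of the 4 Pomc libraries. A Pomc library stood apart from the others in 3 of them, and chance gives about 1 in 20. Peg10 stood at 1285 TPM in Pomc replicate 1 and at 1766 to 1833 TPM in the other Pomc libraries. Blcap stood at 218 TPM in Pomc replicate 1 and at 143 to 148 TPM in the others. H19 stood at 1.83 TPM in Pomc replicate 2 and at 0 to 0.122 TPM in the others.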

How the results depend on the processing

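No member was called under any alternative except the fit on all 7 columns, where 2 were (Zim1 and Cdkn1c, limma adjusted p = 0.0357 and 0.0168) among 205 of all genes; that fit counts the computed column as a replicate. The 57 genes called became 37 with a pseudocount of 0.1, 33 with no filter on low values and 12 with a replicate block, and 22 to 69 leaving out 1 library. Members at an unadjusted p under 0.05 numbered 9 (7.36% of all genes), but 4 with the replicate block (5.17%) and 5 to 8 leaving out 1 library (3.27 to 11.7%). Leaving out 1 library left 0 members called, 12 to 23 members (12 with all) whose groups do not overlap (20.9 to 49.5% of all genes, 15.9% with all) and 17 to 24 (22 with all) with a fold change above 0. The members' median log2 fold change of 0.17 then ranged from -0.0096 (without Npy replicate 2) to 0.322. A lone Npy library is assumed to vary like the Pomc libraries. With TMM factors, and also with short RNA genes removed, the groups of 11 members did not overlap, against 12 without such rescaling. Libraries with the same replicate number did not deviate alike (r = -0.0436 and -0.0334 across 13845 genes for numbers 1 and 2), so the block rests on a shared number only. Leaving out 1 library turned the sign of 11 of the 34 members, none past the threshold. For each of them the lowest and highest log2 fold changes came from leaving out an Npy library. Such a fit sets the Pomc libraries against 1 Npy library, so its 2 versions differ by the gap between the Npy libraries. Without Npy replicate 1 and without Npy replicate 2, in this order, the values were 0.72 and -0.93 for Meg3, -0.48 and 0.0192 for Dlk1, -0.02 and 0.20 for Igf2r, 0.70 and -0.0385 for Usp29, 0.46 and -0.14 for Ube3a, 2.15 and -0.40 for Kcnq1ot1, 0.76 and -0.41 for Mest, 0.23 and -0.46 for Impact, 0.33 and -2.06 for Rasgrf1, 1.21 and -0.53 for Zrsr1, and 0.62 and -0.28 for Zdbf2. Meg3 (0.14) and Impact (0.0992) also turned without Pomc replicate 1, and Mest (-0.016) without Pomc replicate 2. Why libraries of the same neuron type differ was not tested. Begain lost its call with no filter (limma adjusted p = 0.0512), with a single prior variance (0.177) and with the replicate block (0.415). Since TPM keep no depth, no limit of detection could be set.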
